A study of Mus musculus with 24 samples.

Results

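Matrix metalloproteinases (MMPs) and the tissue inhibitors of metalloproteinases (TIMPs) were followed in the transcriptome of ID8 Trp53-/- mouse ovarian cancer cells. The symbols of 10 genes chosen by name were read from the count table, which lists 25229 genes: the MMP genes Mmp2, Mmp3, Mmp9, Mmp10, Mmp11, Mmp13 and Mmp14 and the inhibitor genes Timp1, Timp2 and Timp3. All 10 were found, and 8 passed the filter on low counts. Mmp3 and Mmp9 did not pass and are given as counts and ratios.

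The cells are an established line from C57BL/6 mice whose Trp53 gene is knocked out, a genotype shared by all 24 libraries. They were cultured for 6 days with the solvent DMSO, with cisplatin at 750 nM, with AU-15330 at 2.5 μM, or with both drugs together (the combination), and 6 replicates numbered 1 to 6 were made for each treatment. Cisplatin is a platinum drug that damages DNA, and AU-15330 belongs to the PROTACs and brings about the degradation of SMARCA4 and SMARCA2, the ATPases of the SWI/SNF chromatin remodelling complexes. The comparisons ask what each drug did alone, what it did in the presence of the other, and whether the effect of AU-15330 differed with and without cisplatin. The concentration of cisplatin for these cells differs between the labels, which are followed here, and the methods of the study. Whether the 6 replicates were separate cultures is not stated, so p-values measure the spread between these libraries.

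MMPs are zinc-dependent enzymes that are made as inactive precursors and cut collagens and other proteins of the extracellular matrix once they are activated. MMP13 is a collagenase, MMP3 and MMP10 are stromelysins that cut a broad range of matrix proteins, and MMP11 is an atypical stromelysin activated inside the cell by furin. MMP2 and MMP9 are gelatinases, and MMP14 is anchored in the cell membrane, where it activates MMP2. TIMPs bind the active site of MMPs. TIMP1 and TIMP2 are soluble, TIMP2 also takes part in the activation of MMP2 by MMP14, and TIMP3 is held in the matrix.

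Each library held 17592588 to 25260009 counts on genes, and 3 counts in a single library equalled 0.120 to 0.186 CPM. Where a group held 0 counts, 3 counts over all its libraries together were used for a bound. CPM is the usual depth-scaled count, here with the library total scaled by TMM. Of 9 epithelial and mesothelial markers, 8 passed the filter, with Wt1 at 490 to 1090 CPM in every library, whereas Epcam did not exceed 2 counts in any of them. The summed level of that list was 3510 to 5310 CPM with DMSO, 4180 to 4850 CPM with cisplatin, 1020 to 1150 CPM with AU-15330 and 1220 to 1400 CPM with the combination. Each of those that passed was called lower with AU-15330 than with DMSO, where 37.2% of all tested genes were. Their log2 fold changes ran from −7.99 (Krt19) and −6.50 (Upk3b) to −0.47 (Krt8) and −0.46 (Wt1). Of 7 leukocyte and macrophage markers, which matter here because macrophages make several MMPs, 1 passed (Cd68), and the list summed to 6.46 to 19, 6.99 to 13.3, 16.9 to 53.1 and 24.1 to 42.6 CPM in the same order. The highest counts of Ptprc, Csf1r and Lyz2 in a library were 5, 4 and 4, and Adgre1 had 0 counts in every library with DMSO or with cisplatin, 7 over the AU-15330 libraries and 5 over those of the combination. Of 6 fibroblast markers 4 passed (Col1a1, Pdgfra, Dcn and Lum), with summed ranges of 227 to 641, 365 to 449, 111 to 174 and 194 to 294 CPM, and Col1a2 did not exceed 5 counts. Col1a1 was lower with AU-15330 than with DMSO (368 and 70.5 CPM on average in DMSO and AU-15330, log2 fold change −2.38), whereas Dcn and Pdgfra were called higher, both by 0.90 on that scale, and Lum went from 0 counts over the DMSO libraries to 67 over the AU-15330 libraries. Of 4 endothelial markers 1 passed (Pecam1), with sums of 2.87 to 4.28, 8.51 to 12.8, 0.261 to 0.763 and 0.483 to 1.20 CPM, and Kdr had at most 1 count in any library. The part of these markers in the results on MMPs and TIMPs was not tested. In RNA from whole cultures, fewer cells that express a gene and less RNA of it per cell cannot be told apart.

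Mmp13, Mmp3 and Mmp10 lie in a row of MMP genes on chromosome 9. In the annotation of GRCm38 (mm10), 10 of the 23 MMP genes examined lie at chr9:7272514-7699585, a stretch of 427 kb. They are 3 of the genes followed here and 7 others (Mmp12, Mmp1b, Mmp1a, Mmp8, Mmp27, Mmp20 and Mmp7). Mmp13 (chr9:7272514-7283331) and Mmp10 (chr9:7502352-7510240) passed the filter on low counts, and the other 8 did not. Mmp3 (chr9:7445822-7455975) lies between them and had at most 8 counts in any library, and none of the 7 others had more than 15. The sequence just upstream of the start of these 3 genes is shown because they share a short motif there. The motif searched was TGANTCA, which is its own reverse complement and is the site known for AP-1, the dimers of FOS and JUN proteins. RefSeq promoters of GRCm38.p6 were found for 8 of the 10 genes, and Mmp2 and Mmp9 were not matched. In the 250 bases before the start, 3 of the 8 held the motif, against 6.75% of 32851 promoters. It began 35 bases before the start in Mmp13, 46 bases before it in Mmp3 and 63 bases before it in Mmp10. The sequences run 5′ to 3′ on the plus strand over 110 bases up to the base before the RefSeq start, with the motif in capitals, at chr9:7272404-7272513 for Mmp13, chr9:7445712-7445821 for Mmp3 and chr9:7502232-7502341 for Mmp10.
Mmp13: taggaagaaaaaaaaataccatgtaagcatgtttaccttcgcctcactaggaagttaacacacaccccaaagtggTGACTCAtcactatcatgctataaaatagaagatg
Mmp3: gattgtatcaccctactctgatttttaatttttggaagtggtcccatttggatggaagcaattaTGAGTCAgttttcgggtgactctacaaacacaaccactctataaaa
Mmp10: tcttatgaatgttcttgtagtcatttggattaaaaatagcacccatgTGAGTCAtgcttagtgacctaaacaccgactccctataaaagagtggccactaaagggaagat
A match is a description of the letters, and binding of a factor was not measured here.

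Cells treated with AU-15330 had lower levels of Mmp2, Mmp10, Mmp11, Mmp13 and Mmp14, the MMP genes that passed the filter on low counts, and a higher level of Timp1, while Mmp9, which did not pass, had more counts than with DMSO. The 5 tested MMP genes were also lower with the combination than with cisplatin. Mmp2, Mmp10, Mmp13 and Mmp14 passed the filter through the libraries without AU-15330 and did not pass it among the libraries with AU-15330 alone and with the combination, so the number of genes called lower and the medians over the 8 genes are in part set by the filter and are given as descriptions. Of the 8 tested genes, 6 were lower and 1 higher with AU-15330 than with DMSO, where 37.2% of the 12941 tested genes were lower and 36.2% higher. The median log2 fold change was −2.79 over these 8 genes and −0.003 over all tested genes. Relative to cisplatin, 7 of the 8 were lower and 1 higher with the combination, against 32.7% and 35.4% of all tested genes, with medians of −2.20 and 0.0389.

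Cisplatin moved the genes in both directions. Of the 8, 4 were higher and 2 lower with cisplatin than with DMSO, against 26.0% higher and 25.7% lower among all tested genes, with medians of 0.39 and −0.0041. When cisplatin was added to AU-15330, 5 were higher and 0 lower, against 22.2% and 19.5% of all tested genes, with medians of 0.90 and 0.0062. The count of 0 is that of the edgeR quasi-likelihood test, and it was also 0 at an unadjusted p under 0.05 and with DESeq2. Nothing is read from it, since Mmp2, Mmp10, Mmp13 and Mmp14 were at 0 to 14 counts per library with AU-15330 and left little room for a further fall. Between the combination and DMSO, 2 were higher and 6 lower, against 36.8% and 36.5%. Comparisons with the same control libraries are not independent of each other.

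**Figure D1:**
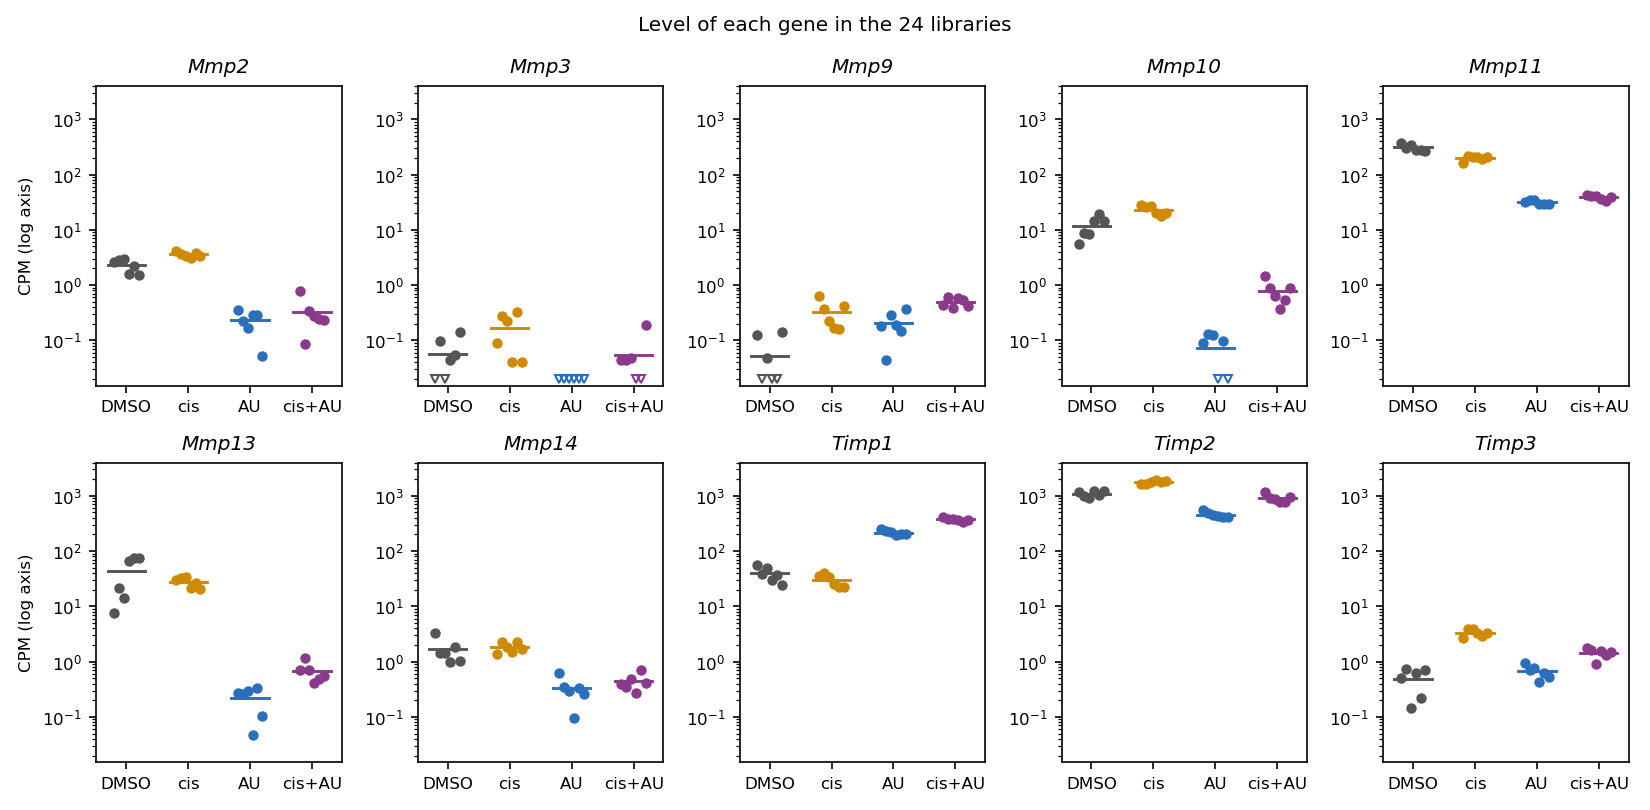
Level of each of the 10 genes in CPM (log axis) in the 24 libraries, with DMSO, cisplatin (cis), AU-15330 (AU) and the combination (cis+AU) on the horizontal axis. Points are libraries in order of replicate number, bars are means of 6, and open triangles at the lower edge mark libraries with 0 counts. For Mmp10 and Mmp13 every library without AU-15330 lies at or above 5.57 CPM and every library with AU-15330 at or below 1.47 CPM.

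The collagenase gene Mmp13 and the stromelysin gene Mmp10 had the largest decreases with AU-15330 of the 8 tested genes, and their order was not tested. With DMSO the 6 libraries were at 7.49, 21.5, 14.2, 67.0, 74.8 and 75.7 CPM, and with AU-15330 they were at 0.270, 0.264, 0.288, 0.0477, 0.340 and 0.104 CPM, between 1 and 7 counts each. The groups did not overlap, and the lowest DMSO library was replicate 1. Mmp13 fell by 7.57 on the log2 scale (SE 0.591, 95% interval −8.73 to −6.42, adjusted p = 1.13e-11, edgeR quasi-likelihood test). By the summed counts, 29 against 5368, the ratio of the scaled levels was 0.00498 (95% counting interval 0.00333 to 0.00716).

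In cisplatin-treated cells Mmp13 was at 29.6, 32.3, 34.3, 21.4, 26.2 and 20.8 CPM, within the range of the DMSO libraries. The log2 fold change of −0.67 (SE 0.355) over all replicates was not called (adjusted p = 0.120). With the combination the libraries were at 0.692, 1.14, 0.719, 0.409, 0.479 and 0.558 CPM, a log2 fold change of −5.34 relative to cisplatin (SE 0.505, adjusted p = 6.20e-10). All 6 combination libraries lay above all 6 AU-15330 libraries, but the difference between these groups of few counts was not called (log2 fold change 1.56, 95% interval −0.18 to 3.31, adjusted p = 0.165). With DESeq2 it was called (log2 fold change 1.58, adjusted p = 0.0133), and with edgeR it was called in replicates 4 to 6 alone (1.48, adjusted p = 0.0336).

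The effect of cisplatin on Mmp13 had opposite signs in the lower and the higher replicate numbers. In the DMSO libraries of replicates 1 to 3, Mmp13 averaged 14.4 ± 7.0 CPM (SD, n = 3), and in those of replicates 4 to 6 it averaged 72.5 ± 4.82 CPM (SD, n = 3). The 3 cisplatin libraries lay above the 3 DMSO libraries in replicates 1 to 3 and below them in replicates 4 to 6. Fitted on replicates 1 to 3 alone, Mmp13 rose by 1.14 on the log2 scale (SE 0.269, adjusted p = 0.00548), and fitted on replicates 4 to 6 alone, it fell by 1.68 (SE 0.115, adjusted p = 1.58e-08). Without replicate 1 the fall was called over the other 5 (log2 fold change −0.92, adjusted p = 0.0192). The labels give the replicate numbers but name no batch, and the difference between the sets was not tested. The fall with AU-15330 was called in both sets, with log2 fold changes of −5.69 and −8.74, where those of Mmp10 were −5.985 and −8.698.

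**Figure D2:**
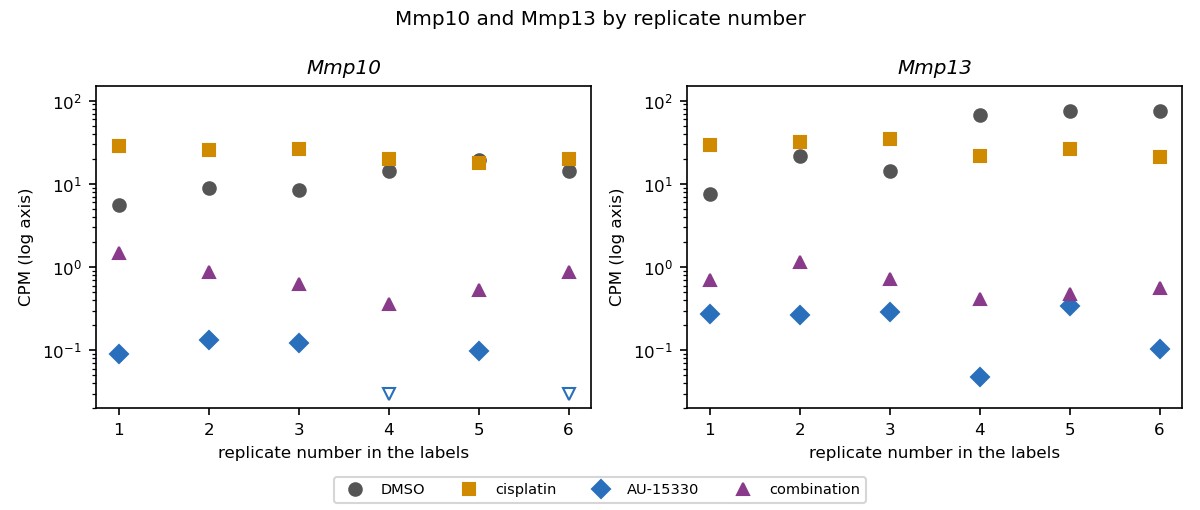
Level of Mmp10 (left) and Mmp13 (right) in CPM (log axis) by replicate number, with 1 symbol per library for DMSO, cisplatin, AU-15330 and the combination, and open triangles for libraries with 0 counts. In Mmp13 the cisplatin squares lie above the DMSO circles in replicates 1 to 3 and below them in replicates 4 to 6.

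The stromelysin gene Mmp10 was higher with cisplatin and had at most 3 counts in any library with AU-15330 alone. The DMSO libraries were at 5.57, 8.82, 8.49, 14.2, 19.4 and 14.2 CPM, and the AU-15330 libraries held 2, 3, 3, 0, 2 and 0 counts, at most 0.132 CPM. None of the AU-15330 libraries overlapped with DMSO. The log2 fold change was −7.16 (SE 0.424, 95% interval −7.99 to −6.33, adjusted p = 3.94e-14, edgeR quasi-likelihood test), and the ratio of the summed counts, 10 against 1430, was 0.00645 after scaling (95% counting interval 0.00308 to 0.0119).

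With cisplatin Mmp10 was at 28.7, 25.8, 26.6, 20.1, 18 and 20.1 CPM. They lay above the DMSO libraries in replicates 1 to 3, and overlapped with them in replicates 4 to 6 and over all replicates. The log2 fold change over all replicates was 0.97 (SE 0.226, adjusted p = 0.000794). It was 1.81 (adjusted p = 3.29e-05) in replicates 1 to 3 alone and 0.27 (adjusted p = 0.160) in replicates 4 to 6 alone.

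In the combination Mmp10 was at 1.47, 0.878, 0.623, 0.364, 0.527 and 0.883 CPM, which corresponded to 8 to 34 counts. Relative to cisplatin it fell by 4.85 on the log2 scale (SE 0.295, adjusted p = 9.20e-14) and relative to AU-15330 alone it rose by 3.28 (SE 0.597, adjusted p = 8.52e-05), with no overlap in either comparison. The combination and AU-15330 counts, 105 and 10, gave a ratio of 10.4 (95% counting interval 5.44 to 22.3). Relative to DMSO it fell by 3.88 (SE 0.296, adjusted p = 7.10e-12).

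The other stromelysin gene of the row on chromosome 9, Mmp3, was barely detected. The DMSO libraries held 0, 2, 0, 1, 1 and 3 counts, the cisplatin libraries 2, 6, 5, 1, 8 and 1, the AU-15330 libraries 0 in all 6, and the combination libraries 1, 1, 1, 0, 0 and 4. The cisplatin and AU-15330 libraries did not overlap, and every other pair of groups did. The summed counts of 23 with cisplatin and 7 with DMSO gave a scaled ratio of 2.81 (95% counting interval 1.17 to 7.76). With the bound of 3 counts over the AU-15330 group in place of 0, Mmp3 was 2.53-fold lower than with DMSO. That value takes the 7 DMSO counts as exact and leaves out their counting error. When all detected genes were tested in edgeR, Mmp3 was called lower with AU-15330 than with DMSO (adjusted p = 0.0186) and was not called with cisplatin (adjusted p = 0.154). In that fit it was also called higher with the combination than with AU-15330 (log2 fold change 3.33, adjusted p = 0.0439).

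Mmp11 (chr10:75923222-75936496), which codes for the furin-activated stromelysin, was the most abundant MMP transcript of the group and fell with either drug. It was at 373, 307, 347, 283, 280 and 270 CPM with DMSO and at 161, 217, 205, 205, 193 and 207 CPM with cisplatin. With AU-15330 it was at 31.9, 34.2, 35.3, 29.9, 29.5 and 29.4 CPM, and with the combination at 43.3, 41.3, 40.1, 36.0, 33.7 and 38.8 CPM. Both groups without AU-15330 lay above both groups with it, and the cisplatin libraries lay below the DMSO libraries without overlap. Mmp11 fell by 0.64 on the log2 scale with cisplatin (SE 0.0847, adjusted p = 5.73e-07), by 3.29 with AU-15330 (SE 0.0930, adjusted p = 1.77e-20) and by 2.35 with the combination relative to cisplatin (SE 0.0895, adjusted p = 8.95e-18). The combination was 0.29 above AU-15330 on this scale (SE 0.0873, adjusted p = 0.00878), the groups overlapped, and this call was lost in replicates 1 to 3 alone (0.27, adjusted p = 0.129).

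The gelatinase gene Mmp2 (chr8:92827291-92853420) had 33 to 96 counts in the libraries without AU-15330. The DMSO libraries held 43, 58, 62, 36, 41 and 33 counts (2.31 ± 0.625 CPM, SD, n = 6), and the cisplatin libraries 91, 82, 75, 76, 96 and 83 counts (3.6 ± 0.343 CPM). All cisplatin libraries lay above all DMSO libraries. The log2 fold change was 0.65 (SE 0.233, adjusted p = 0.0226, edgeR quasi-likelihood test), but the call was lost without replicate 4, 5 or 6 (adjusted p = 0.0768, 0.0804 and 0.0653) and in replicates 1 to 3 alone (log2 fold change 0.395, adjusted p = 0.407).

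With AU-15330 Mmp2 had 8, 5, 4, 6, 6 and 1 counts (0.229 ± 0.109 CPM), and with the combination 18, 2, 7, 6, 5 and 5 counts (0.324 ± 0.237 CPM). Both groups lay below all libraries without AU-15330. Mmp2 fell by 3.28 on the log2 scale with AU-15330 relative to DMSO (SE 0.320, adjusted p = 8.81e-10) and by 3.44 with the combination relative to cisplatin (SE 0.293, adjusted p = 8.08e-11). The combination and AU-15330 overlapped, and their difference was not called (log2 fold change 0.49, 95% interval −0.30 to 1.29, adjusted p = 0.350).

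The other gelatinase gene, Mmp9 (chr2:164940780-164955850), was the only MMP gene of the 7 with higher counts in every drug-treated group than with DMSO. The DMSO libraries held 2, 0, 1, 0, 0 and 3 counts, the cisplatin libraries 14, 8, 5, 4, 4 and 10, the AU-15330 libraries 4, 1, 7, 4, 3 and 7, and the combination libraries 10, 14, 8, 13, 11 and 9. The cisplatin and combination libraries lay above all DMSO libraries, and the AU-15330 libraries overlapped with them. Summed over each group the counts were 6 with DMSO, 45 with cisplatin, 26 with AU-15330 and 65 with the combination. After scaling, the ratio to DMSO was 6.42 with cisplatin (95% counting interval 2.73 to 18.4), 4.00 with AU-15330 (1.61 to 11.9) and 9.90 with the combination (4.31 to 28.0). Mmp9 did not pass the filter on low counts. When all detected genes were tested in edgeR, it was called higher than DMSO in all 3 treated groups (adjusted p = 0.00107, 0.0151 and 2.74e-05 in the same order). In that fit the combination was called above AU-15330 (adjusted p = 0.0411) but not above cisplatin (adjusted p = 0.283). Its highest level in any library was 0.627 CPM. By CPM per kb of exon Mmp9 was last of the 10 genes with DMSO and 7th with the combination, in both cases overlapping with its neighbours in the order.

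The membrane-anchored Mmp14 (chr14:54431612-54445364) was also present in few counts. It had 54, 30, 30, 22, 34 and 22 counts with DMSO (1.68 ± 0.871 CPM, SD, n = 6) and 31, 49, 41, 36, 57 and 41 counts with cisplatin (1.82 ± 0.372 CPM). The ranges overlapped, and no change with cisplatin was called (log2 fold change 0.14, 95% interval −0.39 to 0.67, adjusted p = 0.693). With AU-15330 there were 14, 8, 7, 2, 7 and 5 counts (0.328 ± 0.175 CPM), and with the combination 9, 8, 10, 6, 15 and 9 (0.438 ± 0.154 CPM). Both groups lay below the groups without AU-15330. Mmp14 fell by 2.30 on the log2 scale with AU-15330 (SE 0.331, adjusted p = 7.59e-07) and by 2.05 with the combination relative to cisplatin (SE 0.311, adjusted p = 2.13e-06).

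The 3 inhibitor genes each followed a different pattern. Timp1 (chrX:20870166-20874735) was at 56.7, 38.7, 49.0, 29.8, 37.4 and 24.6 CPM with DMSO and at 248, 227, 218, 197, 204 and 202 CPM with AU-15330. With the combination it reached 414, 386, 386, 363, 332 and 362 CPM. The 3 groups did not overlap, and the combination was the highest. Timp1 rose by 2.46 on the log2 scale with AU-15330 (SE 0.163, adjusted p = 4.22e-13), by 3.63 with the combination relative to cisplatin (SE 0.171, adjusted p = 5.35e-16) and by 0.79 with the combination relative to AU-15330 (SE 0.154, adjusted p = 0.000189).

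With cisplatin alone Timp1 was at 35.8, 40.5, 34.3, 25.6, 22.7 and 22.2 CPM, which overlapped with the DMSO range. The log2 fold change was −0.38 (SE 0.159, adjusted p = 0.0464). This call was lost with total counts in place of TMM scaling (adjusted p = 0.116), with the size factors of DESeq2 (0.0581), in a fit of these 12 libraries alone (0.151) and without replicate 1, 3, 4 or 5 (0.101, 0.173, 0.0637 and 0.143).

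Timp2 (chr11:118301069-118355740) was the most abundant of the 10 transcripts in cells without AU-15330, and it moved in opposite directions with the 2 drugs. It was at 1175, 974, 894, 1226, 1015 and 1196 CPM with DMSO, at 1620, 1605, 1758, 1908, 1769 and 1830 CPM with cisplatin, and at 542, 487, 458, 426, 409 and 407 CPM with AU-15330. No overlap was seen between these groups. Timp2 rose by 0.69 on the log2 scale with cisplatin (SE 0.0998, adjusted p = 2.19e-06) and fell by 1.25 with AU-15330 (SE 0.101, adjusted p = 2.29e-11). With the combination it was at 1164, 908, 873, 771, 778 and 968 CPM, 0.94 below cisplatin (adjusted p = 5.47e-09) and 1.00 above AU-15330 on the log2 scale (adjusted p = 1.65e-08). The combination overlapped with DMSO, and the difference of −0.25 between them (adjusted p = 0.0284) was lost with total counts (adjusted p = 0.332), in a fit of these 12 libraries alone (0.0699), in replicates 1 to 3 alone (0.613) and without replicate 4, 5 or 6 (0.168, 0.0730 and 0.0631).

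Timp3 (chr10:86300372-86349506), at low counts, had the largest increase of the 8 tested genes with cisplatin. It had 8, 15, 3, 14, 4 and 15 counts with DMSO (0.485 ± 0.251 CPM, SD, n = 6) and 59, 84, 85, 80, 73 and 80 counts with cisplatin (3.30 ± 0.478 CPM). Every cisplatin library lay above every library of the other 3 groups. The log2 fold change was 2.74 (SE 0.253, adjusted p = 1.5e-09). With AU-15330 alone there were 21, 16, 19, 9, 13 and 10 counts (0.669 ± 0.185 CPM), not called against DMSO (log2 fold change 0.46, 95% interval −0.12 to 1.03, adjusted p = 0.162). With the combination there were 40, 37, 19, 34, 28 and 32 counts (1.44 ± 0.290 CPM), 1.19 below cisplatin (adjusted p = 2.92e-05) and 1.55 above DMSO on the log2 scale (adjusted p = 1.17e-05). Relative to AU-15330, Timp3 was 1.09 higher on that scale with the combination (SE 0.252, adjusted p = 0.00107), and this call was lost in replicates 1 to 3 alone (log2 fold change 0.78, adjusted p = 0.176).

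**Figure D3:**
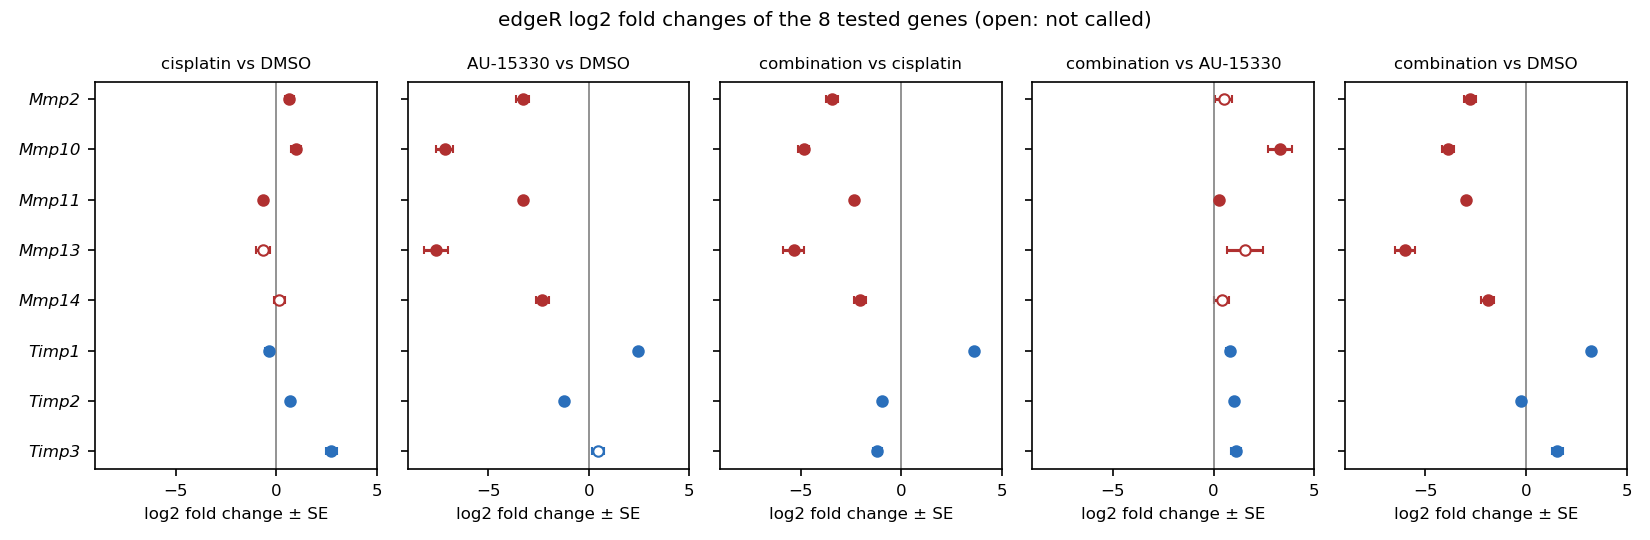
Log2 fold changes from edgeR of the 8 tested genes in the 5 comparisons of 2 groups, with bars of ± 1 SE, MMP genes in red and TIMP genes in blue, filled where the adjusted p was under 0.05 and open otherwise. With AU-15330 and with the combination relative to cisplatin, all 5 MMP genes lie left of 0 and Timp1 lies right of it.

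The effect of AU-15330 differed with and without cisplatin for 4 of the 8 genes. A positive interaction means that the log2 fold change from cisplatin to the combination was higher than that from DMSO to AU-15330. It was called positive for 3 genes and negative for 1, against 17.9% and 15.8% of all tested genes. Mmp10 had an interaction of 2.31 (SE 0.672, adjusted p = 0.00969, edgeR quasi-likelihood test), with fold changes of −7.16 without and −4.85 with cisplatin. It was lost without replicate 6 (adjusted p = 0.0511) and in replicates 1 to 3 alone (1.20, adjusted p = 0.167), and it rests on AU-15330 libraries of at most 3 counts. Mmp11 had an interaction of 0.94 (SE 0.122, adjusted p = 1.75e-06), a smaller decrease in the presence of cisplatin. For Timp1 the interaction was 1.17 (SE 0.221, adjusted p = 0.000217), a larger increase. For Timp3 it was −1.65 (SE 0.364, adjusted p = 0.00108), with a value of 0.46 that was not called without cisplatin and a fall by 1.19 with it.

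For the other 4 genes the interaction was not called. It was 2.23 (95% interval 0.36 to 4.10, adjusted p = 0.0728) for Mmp13, 0.31 (0.03 to 0.58, adjusted p = 0.0940) for Timp2, 0.26 (−0.65 to 1.17, adjusted p = 0.702) for Mmp14 and −0.15 (−1.15 to 0.84, adjusted p = 0.847) for Mmp2. The intervals are those of the single values, before adjustment. With DESeq2 the value for Mmp13 was called (2.23, adjusted p = 0.00855). With edgeR it was called without replicate 1 (2.50, adjusted p = 0.0474) and in replicates 4 to 6 alone (3.17, adjusted p = 0.000334), whereas in replicates 1 to 3 alone it was 0.44 (adjusted p = 0.698).

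The order of the 10 transcripts by level changed with AU-15330. Levels of different genes were compared as CPM per kb of exon. With DMSO, Timp2 was highest at 291 ± 37.0 CPM per kb (SD, n = 6), followed by Mmp11 (135 ± 18.2), Timp1 (44.3 ± 13.4), Mmp13 (16.2 ± 12.1), Mmp10 (6.84 ± 2.94), Mmp2 (0.749 ± 0.203), Mmp14 (0.402 ± 0.208), Timp3 (0.103 ± 0.0531), Mmp3 (0.0311 ± 0.0305) and Mmp9 (0.0163 ± 0.0204). The libraries of Timp1 and Mmp13, Mmp13 and Mmp10, Mmp2 and Mmp14, Timp3 and Mmp3, and Mmp3 and Mmp9 overlapped, and the other neighbours in this order did not. With cisplatin Mmp10 (13.5 ± 2.52) and Mmp13 (10.3 ± 2.10) overlapped, and Timp3 (0.700 ± 0.101) lay above Mmp14 (0.435 ± 0.0889).

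With AU-15330 Timp1 was highest at 243 ± 21.5 CPM per kb, above Timp2 (123 ± 14.2) and Mmp11 (13.9 ± 1.11) without overlap. The other 7 genes were between 0 and 0.142 CPM per kb on average, each overlapping with the next. With the combination the order began in the same way, with Timp1 at 421 ± 31.5, Timp2 at 245 ± 39.3 and Mmp11 at 17 ± 1.53 CPM per kb, and the next was Mmp10 at 0.459 ± 0.226. Mmp13 and Mmp10, the fourth and the fifth with DMSO, had means of 0.0819 and 0.0428 CPM per kb with AU-15330.

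Several of these genes overlap others in the annotation, and whether the counting used the strand of the reads is not given in the sources used here. Timp1 lies within Syn1, a neuronal synapsin gene on the opposite strand. Syn1 was at 10.2 ± 3.88 CPM with DMSO, 10.3 ± 1.83 with cisplatin, 51.2 ± 6.63 with AU-15330 and 79.5 ± 13.2 with the combination, and its counts were 13.2% to 48.3% of those of Timp1 in every library. The overlap was taken from whole gene spans, and overlap of exons was not examined. If strand was not used, reads on exon bases shared by the 2 genes, if any, cannot be told apart. Mmp11 shares 3367 bases with Chchd10, a gene for a mitochondrial protein on the opposite strand, which was at 498 ± 63.2 CPM with DMSO, 357 ± 41.8 with cisplatin, 127 ± 9.84 with AU-15330 and 171 ± 13.9 with the combination. The counts of Chchd10 were 132% to 254% of those of Mmp11 in the libraries without AU-15330 and 346% to 479% in those with it. The same limit holds for any exon bases that Mmp11 and Chchd10 share. Timp3 lies within Syn3, which had at most 5 counts in any library, and Timp2 overlaps with Cep295nl on the same strand, whose counts were at most 0.357% of those of Timp2.

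The genes of the wider family were taken from a list of 56: 16 other MMPs, 7 other inhibitors, 9 partners, activators and uptake receptors, 7 ADAMs and 17 ADAMTSs, the last being secreted proteases that cut proteoglycans and procollagens. Of these, 30 passed the filter. With AU-15330 7 of the 30 were higher and 17 lower than with DMSO, where 36.2% and 37.2% of all tested genes were, with a median log2 fold change of −1.16. With cisplatin 11 were higher and 8 lower, against 26.0% and 25.7%, with a median of 0.06. With the combination relative to cisplatin 7 were higher and 19 lower, against 35.4% and 32.7%, and relative to AU-15330 6 were higher and 6 lower, against 22.2% and 19.5%. Genes that passed the filter only through libraries without AU-15330 had to be lower with it, so these counts are descriptions.

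Of the 16 MMP genes other than the 7 followed by name, 6 passed the filter (Mmp15, Mmp17, Mmp19, Mmp23, Mmp24 and Mmp28). These 6 were lower with AU-15330 than with DMSO, where 37.2% of all tested genes were, with log2 fold changes of −5.08 to −1.24, and lower with the combination than with cisplatin, where 32.7% were. Mmp24, Mmp19 and Mmp15 were at 1 to 6, 5 to 14 and 9 to 18 counts in the libraries with AU-15330 alone, whereas Mmp17, Mmp23 and Mmp28 were at 21 to 39, 16 to 37 and 15 to 41 counts. Among the 10 that did not pass, Mmp16 had 1 count over the DMSO libraries and 10 over the AU-15330 libraries. Mmp27 had 60 over the cisplatin libraries, all above DMSO, and 2, 0 and 2 over those of DMSO, AU-15330 and the combination, and Mmp12 had 46 over the combination libraries and 8 over the AU-15330 libraries, without overlap. Mmp15, another membrane-anchored MMP, was at 20.4 CPM on average with DMSO, 35.4 with cisplatin, 0.600 with AU-15330 and 0.496 with the combination (log2 fold change −5.08 for AU-15330 against DMSO, SE 0.184, adjusted p = 1.74e-18, and −6.14 for the combination against cisplatin, SE 0.188, adjusted p = 1.78e-19). With cisplatin 2 of the 6 were higher and 2 lower, against 26.0% and 25.7% of all tested genes. Mmp24 had a log2 fold change of 1.67 (adjusted p = 8.87e-05) and the GPI-anchored Mmp17 one of −1.82 (adjusted p = 1.56e-05). With the combination Mmp24 was 1.46 above AU-15330 (adjusted p = 0.0252, and 0.0739 and 0.0710 without replicate 1 and 5) and Mmp15 had a log2 fold change of −5.35 relative to DMSO.

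Of the 7 other inhibitors 3 passed the filter, and with AU-15330 Timp4 and Pzp were called lower than with DMSO while the log2 fold change of 0.39 for Spock2 was not called (adjusted p = 0.143). Reck and Spock1, which did not pass, had 29 and 8 counts over the AU-15330 libraries and 1 and 0 over the DMSO libraries, without overlap. Timp4, which lies within Syn2 on the opposite strand, averaged 9.55 CPM with DMSO, 1.03 with cisplatin, 0.330 with AU-15330 and 0.0769 with the combination. Its log2 fold changes relative to DMSO were −3.21, −4.82 and −6.86 in these 3 groups (adjusted p = 1.95e-06, 9.40e-09 and 6.78e-10). Of its 43 counts with AU-15330, 30 were in replicate 1 (median of the 6 libraries 0.174 CPM), and without that replicate the value of −4.82 became −5.82 (adjusted p = 1.04e-10). Pzp, an alpha-2-macroglobulin type inhibitor, averaged 1.23 CPM with DMSO, 2.13 with cisplatin (log2 fold change 0.80, adjusted p = 0.0248) and 0.0527 with AU-15330 (log2 fold change −4.36, adjusted p = 1.43e-08). With the combination it averaged 0.263 CPM, above AU-15330 (log2 fold change 2.19, adjusted p = 0.00602). The AU-15330 libraries held 0 to 2 counts of Pzp and the combination libraries 0 to 11, and these groups overlapped.

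Of the 9 tested ADAMTS genes 4 were higher and 4 lower with AU-15330 than with DMSO, shares near the 36.2% and 37.2% of all tested genes. Adamts1, Adamts4 and Adamts6 rose by 3.50, 3.28 and 4.82 in log2 units (adjusted p = 5.12e-12, 1.70e-12 and 3.28e-16), with Adamts1 at 66.5 CPM on average with DMSO and 754 with AU-15330. Adamts1 and Adamts4 code for enzymes that cut aggrecan and versican. Adamts14, which codes for a procollagen N-proteinase, fell by 7.25 (adjusted p = 1.15e-16), from 18.4 to 0.113 CPM, and with the combination it was at 1.04 CPM, 3.12 above AU-15330 on the log2 scale (adjusted p = 4.37e-06). That rise rests on AU-15330 libraries of 1 to 4 counts. With the combination relative to cisplatin Adamts14 and Adamts7 were lower, with log2 fold changes of −5.16 and −4.24 (adjusted p = 2.41e-16 and 2.15e-17), and Adamts1, Adamts4 and Adamts6 had log2 fold changes of 3.53, 2.40 and 2.33 (adjusted p = 6.09e-12, 2.20e-10 and 4.01e-11). Between the combination and DMSO these 3 were 3.00, 3.53 and 4.21 higher in log2 units, and Adamts7 had a log2 fold change of −4.43. With cisplatin Adamts16 and Adamts6 rose by 1.91 and 1.88 (adjusted p = 0.00683 and 2.18e-07). Adamts16 had 0 to 10 counts in the DMSO libraries and 7 to 35 in the cisplatin libraries, with overlap. Over the 30 related genes the interaction was called positive for 8 and negative for 8, against 17.9% and 15.8% of all tested genes. The called values of at least 1 log2 unit in size were those of Adamts6 (−2.49), Adamts14 (2.10), Bsg (1.90), Mmp17 (1.60) and Mmp15 (−1.07). That of Adamts14 rests on the same few counts with AU-15330.

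**Figure D4:**
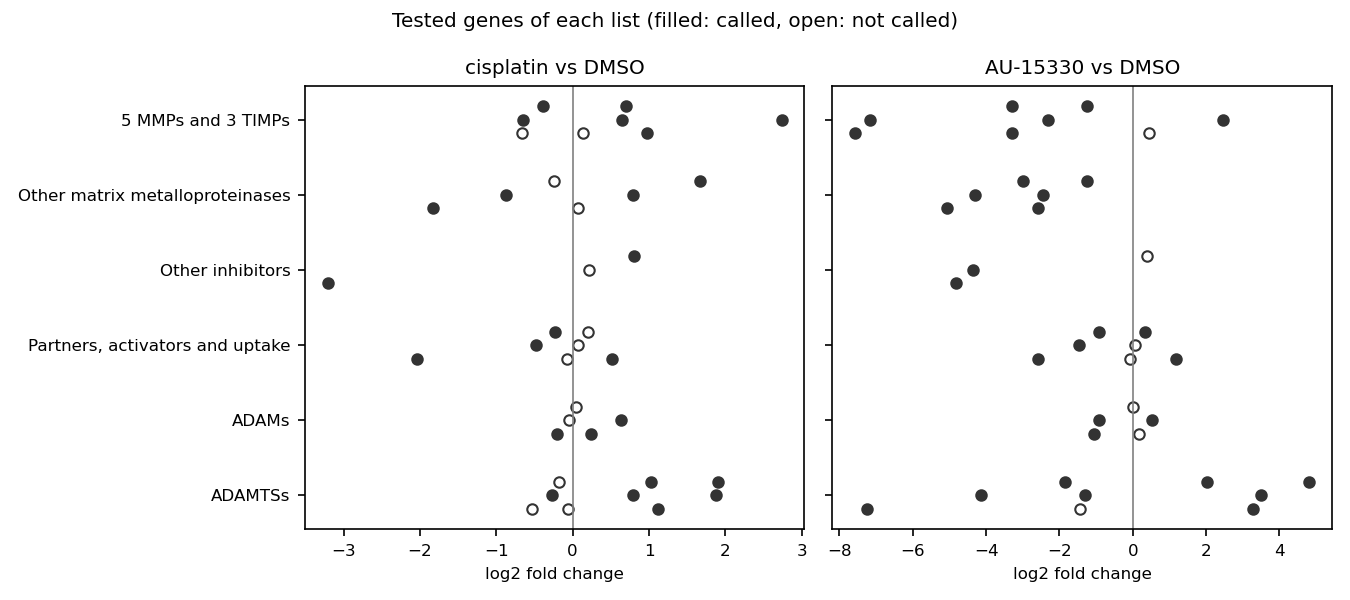
Log2 fold changes from edgeR with cisplatin (left) and with AU-15330 (right) relative to DMSO, with 1 point per tested gene, filled where called and open otherwise, for the 8 tested MMP and TIMP genes and the 30 tested related genes by list. The vertical place within a list has no meaning. On the right, all 6 other MMP genes lie left of 0 and the ADAMTS genes lie on both sides.

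Bsg, which codes for basigin, a membrane protein known to induce MMPs in neighbouring cells, was lower with cisplatin by 2.04 on the log2 scale (SE 0.360, adjusted p = 3.60e-05) and had an interaction of 1.90 (adjusted p = 0.00435). Its DMSO libraries were at 5419, 5989 and 8131 CPM in replicates 1 to 3 and at 1346, 2019 and 1339 CPM in replicates 4 to 6. With cisplatin they were at 937, 1658 and 1529 and at 570, 657 and 535 CPM. In DMSO, Bsg was thus higher in the replicates in which Mmp13 was lower. With cisplatin both genes were higher in replicates 1 to 3 than in replicates 4 to 6, with Mmp13 at 32.0 and 22.8 CPM on average. With AU-15330 and with the combination all 12 libraries lay between 571 and 736 CPM for Bsg. Also in DMSO, Mmp2, Mmp11 and Timp1 were higher in replicates 1 to 3 and Mmp10 and Mmp13 in replicates 4 to 6, each without overlap, as were 21.8% of the 12941 tested genes in either direction.

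The 3 of the 10 genes with a mean log2 CPM of at least 3 were Mmp11, Timp1 and Timp2, and the genes whose levels followed theirs most closely were looked up among 9566 genes over the 24 libraries. Pearson's r is given as a description, since the libraries fall into 4 treatment groups that set most of it. For Mmp11 they were Igfbp4 (r = 0.997), 2310022B05Rik (0.995) and Ctnna1 (0.994). For Timp1 they were Hmox1 (0.979), Pfn2 (0.979) and Mrpl45 (0.976). For Timp2 they were Nek6 (0.991), Flt4 (0.983) and Plekhf1 (0.981).

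Smarca4 and Smarca2, whose proteins AU-15330 removes, were detected in every library. Smarca4 averaged 245 CPM with DMSO, 319 with cisplatin, 387 with AU-15330 and 386 with the combination, and Smarca2 averaged 439, 496, 284 and 250 CPM. As the compound acts on proteins, these transcripts do not check the labels.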

How the data were processed

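RNA of 24 libraries was analysed, 6 for each of 4 treatments taken from the sample labels. The authors aligned the reads with STAR 2.7.1a to mm10 and also list DESeq2 1.36.0 (submitters' processing notes), and what they deposited are unscaled counts of reads per gene symbol. The counting tool, its use of strand and the annotation are not given in the sources used here. Poly(A) RNA had been made into directional libraries read from a single end.

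The 2 lanes of each library were summed. Genes were fitted in edgeR 4.0.16 (R 4.3.3) with TMM scaling, filterByExpr (12941 of 20428 detected genes kept), group means over all 24 libraries and the quasi-likelihood F test (20 residual degrees of freedom). Benjamini-Hochberg values over all tested genes were called under 0.05. Log2 CPM used a prior count of 2. Counting intervals (95%, exact binomial on summed counts) cover counting error only, and reads without molecular identifiers are not independent molecules. The bound of 3 counts leaves out the counting error of the other group. Totals of 17592588 to 25260009 counts per library set the precision. Gene positions and exon lengths came from GENCODE (GRCm38) and promoters from RefSeq (GRCm38.p6). The fit was tested on simulated data.

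The members and lists were chosen with earlier results of these data known. The text names the 10 genes, the 3 largest called increases and decreases of at least 2-fold among related genes in each comparison, and the 3 genes most correlated with each member of mean log2 CPM of at least 3. The genes overlapping a member, Bsg in each library, and the counts of the chromosome 9 genes were looked up after values were seen. Alternatives were other scaling, DESeq2 1.42.0, no filter, replicate subsets, a replicate block and fits of 2 groups.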

Additional observations from a re-analysis of the deposited data

Results flagged for a closer look

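In 2 of the 32 groups of 6 libraries examined for the tested genes, a single library lay far from the other 5, by a gap that was a larger share of the group's range than Dixon's 95% critical value. Chance alone gives about 1 in 20 such groups. Mmp2 in replicate 1 of the combination was at 0.779 CPM against 0.0878 to 0.335 CPM in the other 5 (share 0.642). Mmp14 in replicate 1 of DMSO was at 3.34 CPM against 0.985 to 1.83 CPM (share 0.641).

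The effect of AU-15330 on the log2 scale differed between cells with and without cisplatin, by edgeR's test of the interaction, for Mmp10 (2.31, adjusted p = 0.00969), Mmp11 (0.94, adjusted p = 1.75e-06), Timp1 (1.17, adjusted p = 0.000217) and Timp3 (−1.65, adjusted p = 0.00108).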

How the results depend on the processing

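The 48 log2 fold changes of the 8 tested genes were computed again under 14 other settings, except that a fit of 2 groups gives no interaction and that Mmp2, Mmp10, Mmp13 and Mmp14 did not pass the low-count filter in the fit of the combination and AU-15330 alone. Of 660 values, 624 kept their direction and their side of the threshold, 22 kept the direction but lost the call, 7 gained a call and 7 changed sign. Of 38 called values, 31 stayed called in every setting that gave a value and 7 did not. The number of genes called between the combination and AU-15330 was 5, and with replicates 1 to 3 only it was 3. With DESeq2, and without the low-count filter, Mmp3 and Mmp9 entered the test and 7, 9, 8, 7 and 9 genes were called in the 5 comparisons, in place of 6, 7, 8, 5 and 8. The signs that changed were, with replicates 1 to 3 only, those of Mmp14 and Mmp13 for cisplatin against DMSO (−0.17 and 1.14), Mmp14 for the combination against AU-15330 (−0.085) and Mmp2 for the interaction (0.27), and with replicates 4 to 6 only, that of Timp3 for AU-15330 against DMSO (−0.007). Leaving out each replicate in turn gave −0.49 to 0.016 for the interaction of Mmp2, with 0.007 without replicate 4. The causes were not tested. Same-numbered libraries of different groups deviated together in 23 of 36 pairs by a correlation over 0.1 (mean 0.145, lowest −0.133, against a mean of −0.0269 for libraries of different numbers), and 10 of 24 libraries were closest to their own number, which hints at some shared deviation. Since not every pair was over 0.1 and the labels name no shared source, the numbers were not taken to pair the samples. With the replicate block 6, 7, 8, 5 and 8 genes were called in the 5 comparisons and 4 for the interaction, and no call changed. Counts under about 10 per library limit Mmp3, Mmp9 and the AU-15330 values of Mmp2, Mmp10, Mmp13 and Mmp14.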
